A study of Mus musculus with 4 samples.

Results

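U3, U8 and the vertebrate telomerase RNA are noncoding RNAs made from their own genes and capped with trimethylguanosine. They were followed here in liver RNA of Fto knockout mice and wild-type mice. Features were taken by name, every copy that the deposited tables list as U3, U8 or Telomerase-vert. This gave 10 of 7569 transcripts in the immunoprecipitate table (7 U3, 2 U8 and 1 Telomerase-vert) and 4 of 12883 genes in the input table (2 U3, 1 U8 and 1 Telomerase-vert). No measured value enters that rule, but the names were selected on earlier results of these tables, mainly the immunoprecipitate fold changes, so the values are given as a description. The labels list 4 groups, all liver biopsy on a C57/Bl6 background: Fto knockout and wild-type RNA immunoprecipitated with a methyladenosine antibody, and Fto knockout and wild-type input, with 3 replicates stated for each. Age, sex, the design of the knockout allele and whether replicates were separate animals are not stated, and the variation behind the p-values may be technical only.

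U3 is the box C/D small nucleolar RNA (snoRNA) that base-pairs with the precursor of ribosomal RNA in the small-subunit processome, where it is needed for the cuts that release small-subunit rRNA. U8, whose mouse gene is Snord118, is the box C/D snoRNA needed for maturation of the large-subunit rRNAs. Telomerase RNA, whose mouse gene is Terc, is the template with which telomerase adds telomere repeats, and in vertebrates it carries an H/ACA domain bound by dyskerin. Most other snoRNAs are cut out of introns and have no cap. Small nuclear RNAs (snRNAs) of the Sm class carry the same trimethylguanosine cap as U3 and U8, and their first transcribed base can be the dimethylated adenosine m6Am, which FTO can demethylate at its base. The antibody used in miCLIP binds m6Am as well as N6-methyladenosine.

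What was deposited are the authors' comparisons and not values of single libraries. Each feature has the mean of its normalized counts over all libraries (called its mean below), a log2 fold change with its standard error (SE) and the authors' p-values. No header gives a direction. Fto itself stood at −1.49 on the log2 scale in the input (SE 0.27, adjusted p = 3.52e-04, authors' deposited table), and input values are therefore taken as knockout relative to wild type. The immunoprecipitate was read the same way. That reading rests on a Spearman correlation of 0.16 between the tables across 684 gene names whose means reached 10 or more in each, which share library preparation and are not independent. Read the other way, every immunoprecipitate sign below turns. The liver marker Alb had a mean of 84262 in the input table. Copies of U3 and of U8 are closely alike, and how reads were assigned to copies is not stated, so values of single copies are uncertain. In bulk liver, fewer cells of a type and less RNA per cell cannot be told apart.

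U8 was the most abundant snoRNA of the immunoprecipitate, and both of its copies lay above 0. The leading U8 copy had a mean of 2667, which ranked 1 among 298 snoRNA features and 32 among all features of the table. Its log2 fold change was 2.77 (SE 0.58), or 6.81-fold on the linear scale, with an unadjusted p of 0.00398 and an adjusted p of 0.0674 in the authors' deposited table. No other member had a lower adjusted p, and this one lay just outside the threshold of 0.05. The second U8 copy was far less abundant, with a mean of 22.4, and stood at 3.91 (SE 1.74, adjusted p = 0.218, authors' deposited table). The 95% intervals of the copies (fold change ± 1.96 SE) overlapped between 1.63 and 3.91.

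All 7 U3 copies also lay above 0, with a median log2 fold change of 2.78. Of the 10 members, 4 abundant U3 copies came next after U8. They had means of 1164, 530, 491 and 339, and their log2 fold changes were 2.61 (SE 0.78), 2.66 (SE 0.70), 2.78 (SE 0.81) and 1.77 (SE 0.78) in the authors' deposited table. The first of these ranked 2 among snoRNA features by mean. The 3 less abundant U3 copies had means of 66.7, 54.5 and 20.6 and stood at 4.18 (SE 1.09), 4.08 (SE 1.38) and 3.07 (SE 1.36) in the authors' deposited table. Their fold changes are above those of the 4 abundant copies, but all 7 of their 95% intervals share the range from 2.05 to 3.29. On the linear scale U3 and U8 copies ranged from 3.40-fold to 18.2-fold. None of the U3 copies came near the threshold, with adjusted p from 0.271 to 0.695 in the authors' deposited table.

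Telomerase RNA had the lowest fold change of all members, but its interval does not set it apart from U3 and U8. Its single copy had a mean of 34.2 and stood at 0.93 on the log2 scale (SE 1.14, adjusted p = 0.753, authors' deposited table). Its 95% interval ran from −1.30 to 3.16. It holds 0 and also the values of 5 of the 7 U3 copies.

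**Figure D1:**
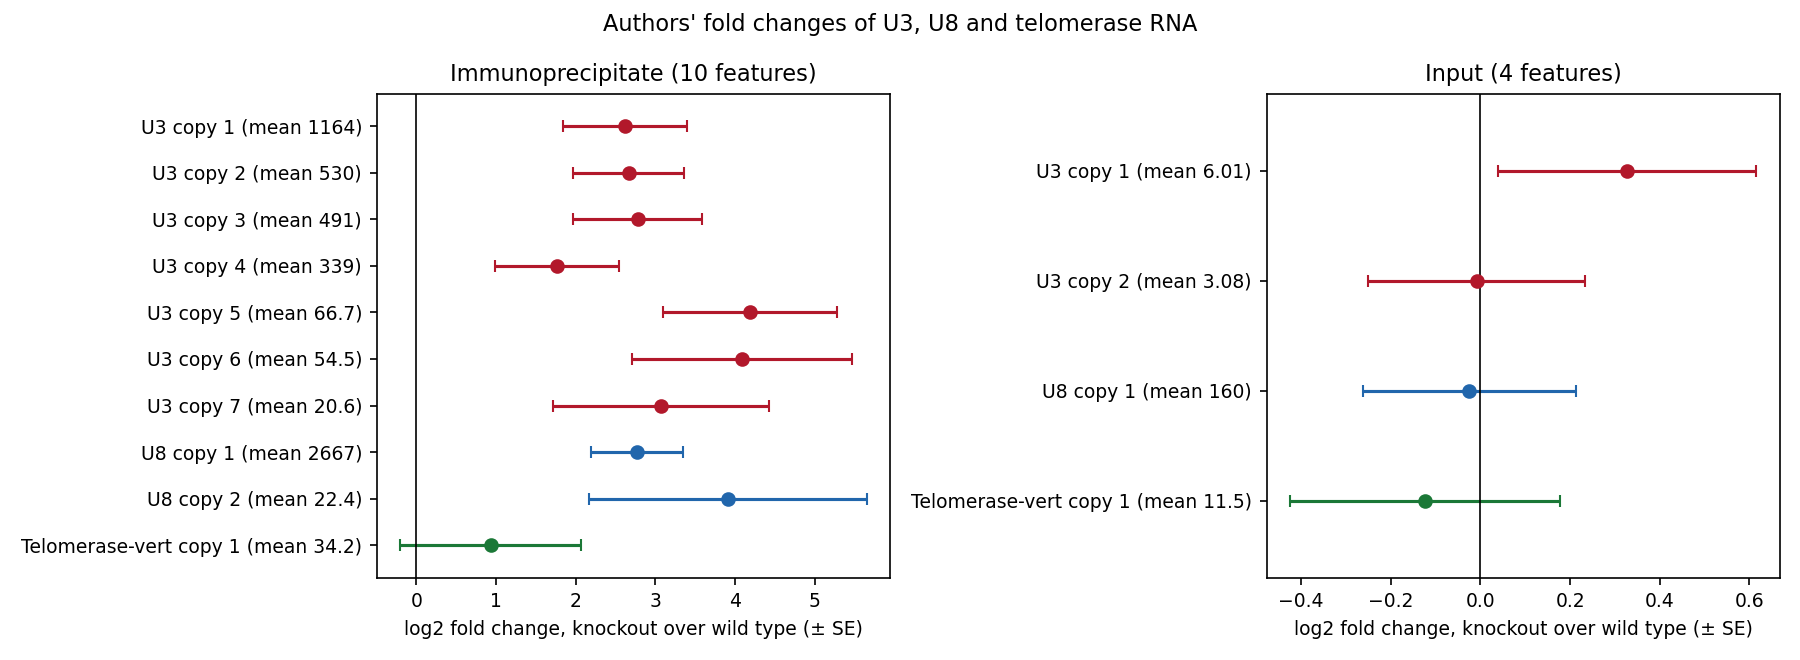
Log2 fold change, knockout over wild type, of each copy of U3, U8 and telomerase RNA in the immunoprecipitate (left, 10 copies) and the input (right, 4 copies), with bars of 1 SE as the authors deposited them. The 9 U3 and U8 copies of the immunoprecipitate sit between 1.77 and 4.18, telomerase RNA at 0.93, and the input copies, on a narrower axis, between −0.12 and 0.33.

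By the authors' own call, an adjusted p under 0.05, 0 of the 10 copies were higher and 0 lower, where 0.895% of the 2347 immunoprecipitate features with an adjusted p were called higher and 3.79% lower. DESeq2 is the only test named in the submitters' processing notes. At an unadjusted p under 0.05 there were 2 higher copies, both of U8, and 0 lower, where 1.88% of all features with a p were higher and 8.52% lower. The printed fold changes over their own standard errors gave other counts. All 9 U3 and U8 copies lay more than 1.96 SE above 0, as did 480 of all 7569 features. With p-values from that ratio adjusted over the whole table by the Benjamini-Hochberg method, 6 of the 10 copies came under 0.05, 5 of U3 and 1 of U8, where 2.81% of all features did so as higher. After the median feature at a mean of at least 10 was set to 0, 8 copies did, where 3.75% of all features did. Because the names were selected on these same fold changes, such counts describe the copies and are no test of them.

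The counts rest on different values of the same table, since the deposited statistic is not the square of fold change over SE. The leading U3 copy had a statistic of 2.32, against a squared ratio of 11.3. For the leading U8 copy the statistic was 8.29 and the squared ratio 22.6. The statistic was below the squared ratio for 10 of 10 copies. The same held for 79.0% of features with a mean of at least 10. The model term behind the authors' p is not stated, and which of the values answers the genotype comparison was not tested.

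**Figure D2:**
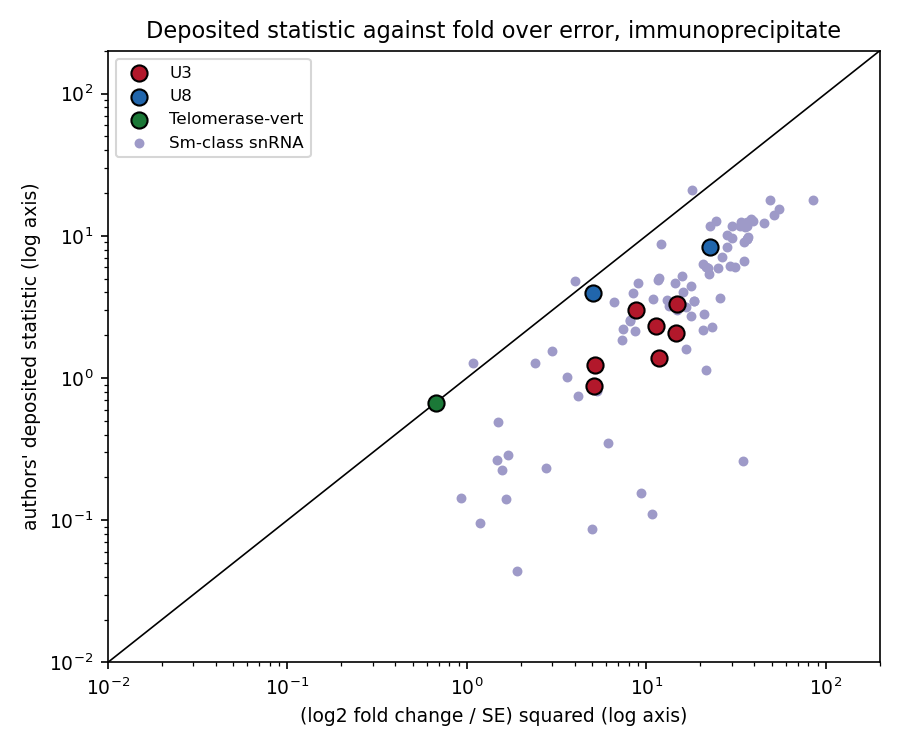
Deposited statistic (vertical, log axis) against the square of log2 fold change over SE (horizontal, log axis) for the 10 copies and 83 Sm-class snRNA copies at a mean of at least 10 in the immunoprecipitate; 7 more snRNA copies lie outside the axes, and the line marks equality. All 10 copies lie under the line, with telomerase RNA almost on it and, of the 10, the U3 copies farthest below it.

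U3 and U8 were next set beside the other snoRNAs, most of which have no cap of their own. The 10 most abundant snoRNA features of the immunoprecipitate held 5 copies of U3 and U8, with means from 339 to 2667, and 5 of other snoRNAs, with means from 308 to 642. The U3 and U8 copies stood between 1.77 and 2.78 and all 5 of their 95% intervals lay above 0. The others, all box C/D guides of ribosomal RNA methylation or cleavage, stood between −1.49 and −0.54, and 0 of 5 intervals lay above 0. The most abundant of these was a SNORD14 copy with a mean of 642 and a log2 fold change of −1.40 (SE 0.72), followed by SNORD47 at −0.54 (SE 0.69), SNORD81 at −0.74 (SE 0.70) and SNORD33 at −0.59 (SE 0.54) in the authors' deposited table. A second SNORD14 copy had the widest error of the 5, at −1.49 (SE 1.23, authors' deposited table). Intervals above 0 were not confined to U3 and U8 at this abundance. Of all 124 features at a mean of at least 300, 45 had a 95% interval above 0, and 40 of those 45 were Sm-class snRNA copies. Fold changes of the snoRNA groups did not overlap, though the lowest U3 interval began at 0.24 and the highest of the other snoRNAs ended at 0.92.

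**Figure D3:**
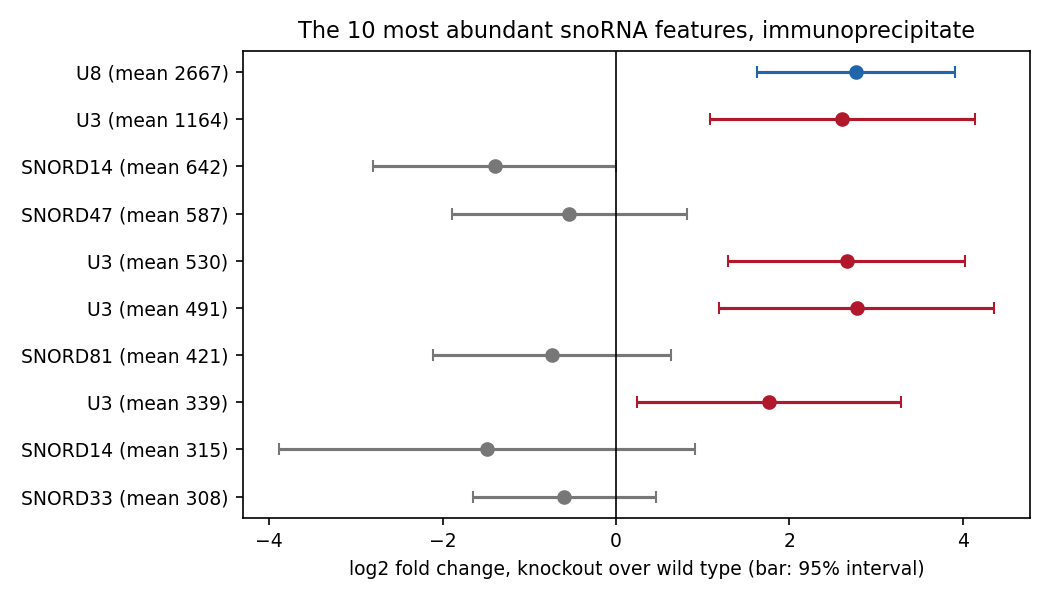
Log2 fold change, knockout over wild type, of the 10 snoRNA features with the highest means in the immunoprecipitate, with bars of the 95% interval and the mean beside each name. The U8 copy (blue) and the 4 U3 copies (red) lie between 1.77 and 2.78, and the 5 other copies (grey) between −1.49 and −0.54.

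The groups also did not overlap at lower means down to 50, and they did among sparse features. The mean covers both genotypes, so a feature high in only a single genotype can pass such a cut, or rank high, through that genotype. The names were also selected on these fold changes, so the gap between the groups is a description. At a mean of at least 50, the 7 U3 and U8 copies had a median of 2.77, and the 49 other snoRNA features a median of −0.89 with a highest value of 0.73 (SNORA48, SE 0.89, authors' deposited table). Down to a mean of 10, the 10 members had a median of 2.77 with 10 above 0, the 189 other snoRNA features a median of −1.17 with 52 above 0, and all 1682 features a median of −0.82 with 34.8% above 0. Of those 189 snoRNA features, 18 reached the lowest U3 value, where 322 of all 1682 features did. At a mean of at least 50, 0 of the 49 other snoRNA features reached it, where 72 of all 364 features did. The 18 snoRNA features had means from 10.3 to 37.3 and standard errors from 1.53 to 3.03. Of the 18, 5 lay more than 1.96 SE above 0, and 0 were called by the authors. The snoRNAs snoU13 and SNORD13, which are also transcribed from their own genes, were not analysed here.

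**Figure D4:**
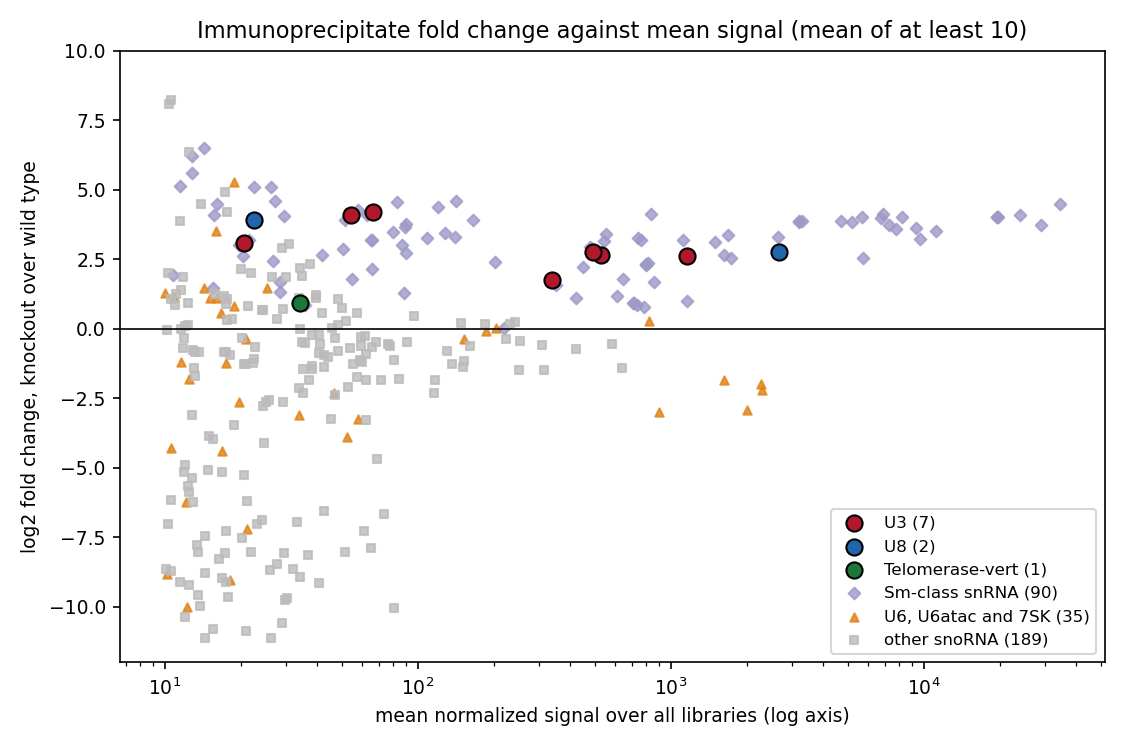
Log2 fold change (vertical, knockout over wild type) against mean normalized signal (horizontal, log axis) for U3, U8 and telomerase RNA copies and 3 classes of small RNA at a mean of at least 10 in the immunoprecipitate; 1 feature lies outside the vertical axis. From a mean of 50 upward U3 and U8 lie within the band of Sm-class snRNAs and above the other snoRNA features, which end at 0.73.

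The Sm-class snRNAs share the cap type with U3 and U8 and covered the same range. At a mean of at least 10 the U3 copies had a median of 2.78, the U8 copies of 3.34 and telomerase RNA a value of 0.93, against 3.29 for 90 Sm-class copies, which ran from 0.02 to 6.52. U3 lay between the snRNA families. Its median of 2.78 was above those of U2 (1.32, 16 copies), U11 (1.78, 2 copies) and U4 (2.33, 9 copies) and below those of U12 (3.36, 3 copies), U5 (3.53, 7 copies) and U1 (3.90, 52 copies). The U3 range from 1.77 to 4.18 overlapped that of every one of these families. Copies come from the same libraries, so their spread is no measure of error, and differences between families were not tested. Of the 90 Sm-class copies 21 were called higher by the authors, 19 of them U1, and of the 9 U3 and U8 copies 0. Among all 1682 features at a mean of at least 10, 21 were called higher. At a mean of at least 300 the counts were 16 of 47 Sm-class copies and 0 of 5 U3 and U8 copies. Of those 16, 15 were U1 copies, and among all 124 features at that mean 16 were called higher. The difference between these counts was not tested.

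RNAs of RNA polymerase III with a methylated triphosphate cap lay on both sides of 0. At a mean of at least 10, U6, U6atac and 7SK had a median of −1.81 over 35 copies, of which 34.3% were above 0, close to the 34.8% of all features. U6 alone had a median of −0.80 over 24 copies, near the −0.82 of all features. At a mean of at least 300 the 5 U3 and U8 copies lay between 1.77 and 2.78, and the 6 copies of this class, all 7SK, between −3.00 and 0.27.

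**Figure D5:**
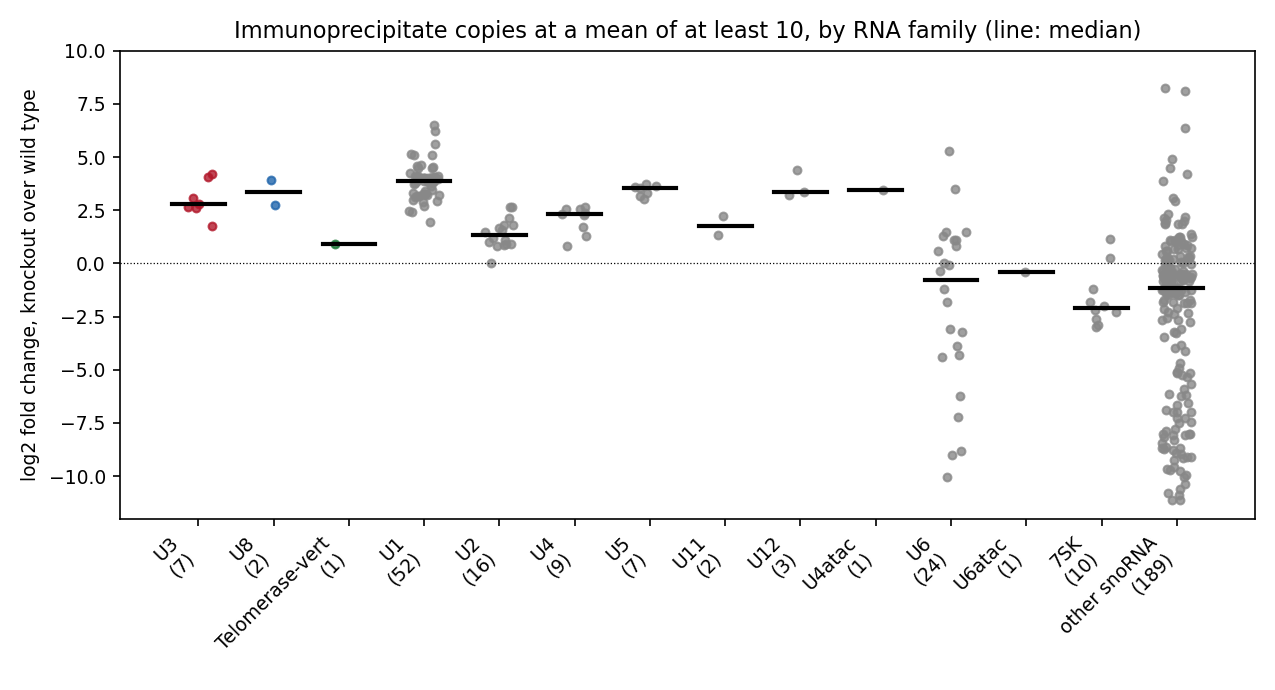
Log2 fold change, knockout over wild type, of every copy at a mean of at least 10 in the immunoprecipitate, by RNA family with the number of copies in brackets; black lines are medians, and 1 snoRNA feature lies below the axis. U3 (median 2.78) and U8 (3.34) fall among the Sm-class families, and telomerase RNA (0.93) lies below the median of each of those families. U6, 7SK and the other snoRNA features have medians below 0.

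In the input, which measures the RNAs without the antibody, no member passed the authors' test. They called 0 of 4 genes, where 0.0233% of 12865 tested genes were called higher and 0.0155% lower. At an unadjusted p under 0.05 there were also 0 of 4, where 1.23% of genes were higher and 0.979% lower. Snord118, the U8 gene on chromosome 11 (69073426 to 69073562, RefSeq on GRCm38.p6), had a mean of 160, which ranked 6 among 121 snoRNA genes. Its log2 fold change was −0.02 (SE 0.24, unadjusted p = 0.918, authors' deposited table), with a 95% interval from −0.49 to 0.44. Terc, the telomerase RNA gene on chromosome 3 (96414437 to 96414833, RefSeq on GRCm38.p6), had a mean of 11.5 and stood at −0.12 (SE 0.30, authors' deposited table). Fold changes in this table have the small sizes of shrunken estimates, with no SE above 0.302, so they are not on one scale with those of the immunoprecipitate.

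The U3 genes of the input were sparse. Gm22865 had a mean of 6.01 and a log2 fold change of 0.33 (SE 0.29), and Gm25419, which RefSeq lists as a pseudogene, had a mean of 3.08 and a log2 fold change of −0.01 (SE 0.24) in the authors' deposited table. The U3 genes with symbols of their own, Rnu3a and Rnu3b1 to Rnu3b4, were not analysed here. Input levels of the U3 copies that lead the immunoprecipitate are therefore unknown, and the input says little about U3 as a whole.

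U8 is the member for which both tables hold an abundant feature. It stood at 2.77 (SE 0.58) in the immunoprecipitate for the leading copy and at −0.02 (SE 0.24) in the input. Telomerase RNA stood at 0.93 (SE 1.14) in the immunoprecipitate and at −0.12 (SE 0.30) in the input. Immunoprecipitate and input fold changes are not on one scale, so their sizes cannot be compared directly. Copies of the immunoprecipitate could not be matched to input genes by identifier, so the leading U8 copy is not shown to be Snord118. The weight of these RNAs also differed between the tables. U3 and U8 made up 32.7% of the summed means of snoRNA features in the immunoprecipitate and 3.57% in the input. Those shares are not alike, since the immunoprecipitate is listed by transcript and the input by gene, and reads of similar copies may have been counted more than once. The input share holds U3 only as the sparse Gm22865 and Gm25419. The means cover both genotypes, so the immunoprecipitate share includes the fold changes on which the names were selected.

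The pattern nearest to that of U3 was looked for among 74 noncoding RNA families that reached a mean of 10 in each table, by percentile of the family median in each table. U3 lay at percentile 86.5 of immunoprecipitate fold changes and 76.5 of input fold changes. Its input value comes from genes under the mean of 10. Nearest were SNORA66 (81.8 and 73.1), SNORD38 (75.1 and 75.7) and SNORA74 (75.0 and 80.6), with 2 immunoprecipitate copies and 1 input gene each. The percentile ignores the errors, and SNORA66 copies, at 1.88 in the median, had a ratio of fold change to SE under 1.96. The same search from U8 (89.1 and 44.7), which has an abundant input gene, gave another order, with the Sm-class snRNA U5 nearest (89.6 and 32.9, from 7 copies and 1 input gene).

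Proteins that work with these RNAs were examined through their messages in the input. None of the lists held a called gene apart from Fto. The core proteins of box C/D particles and the U3-specific protein Rrp9 were all 5 measured, with 4 above 0. Nop58, a core protein of every box C/D particle, stood at 0.55 (SE 0.28), and Rrp9 at 0.03 (SE 0.30) in the authors' deposited table. The small-subunit processome, which U3 organises, had 41 of 41 genes measured, 28 above 0, with a median of 0.09, where 53.5% of all genes lay above 0 and their median was 0.02. The members with the lowest p were Heatr1 at 0.54 (SE 0.26, p = 0.0402 unadjusted), Utp4 at 0.51, Utp11 at 0.44 and Aatf at 0.42 in the authors' deposited table.

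Telomerase and H/ACA proteins gave 0 calls among 12 genes, with a median of −0.04. Tert, the reverse transcriptase that copies the Terc template, stood at −0.30 (SE 0.30), the telomerase-associated protein gene Tep1 at −0.41 (SE 0.27), the assembly ATPase gene Ruvbl2 at 0.41 and the deadenylase gene Parn, which trims telomerase RNA in human cells, at −0.24 in the authors' deposited table. In the list of cap trimethylation and transport genes 0 were called among 12 measured, 10 of them above 0, with a median of 0.08, where 53.5% of all genes lay above 0 with a median of 0.02. Tgs1, which makes the trimethylguanosine cap and was picked for that role, stood at 0.04 (SE 0.30), Smn1 at 0.40, the cap-binding gene Ncbp2 at 0.36, Nolc1 at 0.23 and the export receptor gene Xpo1 at −0.17 in the authors' deposited table.

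A list of 4 genes whose enzymes write m6Am or erase methyl groups on adenosine held Fto as its only call. Other adenosine methyltransferases were not in it. Pcif1, which writes m6Am at mRNA caps, stood at −0.27 (SE 0.28), Mettl4, which in human cells writes m6Am inside U2, at 0.22 (SE 0.29) and the demethylase gene Alkbh5 at 0.09 (SE 0.23) in the authors' deposited table. In the immunoprecipitate none of the protein lists held a feature with a mean of at least 10 or a called feature, so they are not described there by size.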

How the data were processed

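The deposited tables hold the authors' comparisons, 1 for the immunoprecipitate by transcript and 1 for the input by gene. The submitters' processing notes name STAR, bedtools 2.25.0, DESeq2 and mm10 without saying what each did. Columns, per the file headers, are the authors' mean normalized count over the libraries (a signal), a log2 fold change with its SE on the log2 scale, a test statistic (a score) and p-values, plain and adjusted. Depth is unknown, since library totals and replicate values were not used here. The labels state 3 replicates per group, which may be technical. The deposited p of the immunoprecipitate equalled a chi-square tail probability of the statistic (1 degree of freedom), and the input statistic equalled fold change over SE.

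Members and gene lists were chosen with earlier results of these data known, so their values, and calls made from them, are descriptions. Every copy with an exact name match was used; copies are numbered by mean. Named singly were all members, up to 4 genes per list with the lowest p, and the 3 nearest families. Values were computed in Python 3.11.15 with numpy 2.4.6, pandas 2.3.3 and scipy 1.17.1. Calls from fold over SE used normal tails with Benjamini-Hochberg adjustment over the table. Their check on simulated data drew its errors from the printed SEs, so it cannot show whether those SEs are right. Input genes were named by identifier (12869 of 12883 matched). Alternatives were minimum means of 1 and 10, centring on the median feature, leaving out fold changes shared by at least 20 features, the most abundant copy alone, and calls from fold over SE. No sequence of a member was used.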

Additional observations from a re-analysis of the deposited data

How the results depend on the processing

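Centring on the median feature at a mean of at least 10 (−0.82 in the immunoprecipitate) moved the U3 median there to 3.60 and the U8 median to 4.16, from 2.78 and 3.34. Telomerase RNA stood at 1.75 after centring. No copy of the 10 was called by the authors' adjusted p, whereas fold over SE called 6 higher, and 8 after centring; the cause of the gap between the authors' p and the printed SE was not tested. Minimum means of 1 and 10 and leaving out repeated values removed no member of the immunoprecipitate, so its medians could not move. In the input only the minimum of 10 removed members, the U3 genes. The most abundant copy alone moved the member medians of both tables by less than 1 SE. Under every call rule 0 member genes of the input were called. No value could be given for U3 in the input at a mean of at least 10. No paired analysis was possible because only the authors' comparisons, with no columns of single samples, were used; for the same reason no replicate could be left out.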

Other observations

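Genes that transcribe snRNA-type genes, the kind to which U3 and U8 belong, were also read in the input. All 26 were measured, 15 lay above 0 with a median of 0.11, where 53.5% of all genes lay above 0 with a median of 0.02. Of the 26, 0 were called and 2 had an unadjusted p under 0.05 and lay above 0, where 1.23% of all genes did. These were Ints2 at 0.65 (SE 0.29, p = 0.0246) and Ints13 at 0.54 (SE 0.28, p = 0.0491), subunits of the Integrator complex that cleaves nascent snRNAs, in the authors' deposited table. Ints14 stood at 0.42 and the elongation factor gene Ell at −0.36.

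Genes of U8 turnover and of large-subunit rRNA maturation had 12 of 14 measured in the input, 7 above 0 with a median of 0.02, with 0 called and 0 at an unadjusted p under 0.05. The exosome nuclease gene Dis3 stood at −0.52 (SE 0.29), Lsm4 at 0.33, Lsm2 at 0.22 and Lsm3 at 0.21 in the authors' deposited table. Nudt16, whose Xenopus relative removes the cap of U8, was picked for that role and stood at −0.12 (SE 0.30).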
